A study of Mus musculus with 4 samples.

Results

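Heart muscle cells (cardiomyocytes) from pressure-loaded and control mouse hearts were profiled by RNA sequencing, and the genes of glycolysis, glycogen turnover and the pentose phosphate pathway were examined here. The genes were chosen by symbol, with earlier results of these data known. Their 37 symbols matched 38 of 22322 rows, because Aldoa appeared in 2 rows, of which ENSMUSG00000114515 had a count of 0 in every library. The sham-operated group had 2 libraries, and so did the group with transverse aortic constriction (TAC), a banding of the aorta that makes the left ventricle pump against a higher pressure. Male mice were operated on at 2 months of age, and heart function was followed to 14 weeks after surgery, while the mice were also called 14 weeks old when cells were isolated by perfusion of the heart, so the time from surgery to isolation is uncertain. Each library was made from part of the myocytes of a single heart. The sources used here name no transgene and no strain. The labels do not say more about the replicates. Each p-value below sets the difference between the groups against the spread between libraries of a group, with 2 libraries in each.

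The libraries held 24237777 to 32118323 expected counts. The 13 protein-coding mitochondrial genes took 39.8% to 40.9% of the counts in the sham libraries and in TAC 2 but 47.4% in TAC 1. The 15 cardiomyocyte markers summed to 80990 and 90240 CPM in sham and 88080 and 84570 CPM in TAC, and none was at 0. Of these markers 10 had a positive fold change and 5 a negative one. Csrp3 rose (log2 fold change 0.62 ± 0.10 SE, edgeR adjusted p = 0.0196) and Tcap fell (−0.91 ± 0.13, 0.0149). Among the others, Myl2 (0.41), Mybpc3 (0.40), Actn2 (0.36), Ryr2 (−0.38) and Myh6 (−0.18) did not pass. CPM is the count scaled to a common library size, here with TMM factors, which align the libraries by trimmed means of gene ratios. Markers of other cell types were present, and most had a lower level in TAC. All 15 endothelial markers had a negative fold change and 5 of them passed the test, with a summed level of 802 to 957 CPM in sham and 453 to 631 CPM in TAC. All 15 fibroblast markers were also negative (5 passed), at a sum of 541 to 754 CPM in sham and 319 to 425 CPM in TAC. The 15 macrophage markers summed to 87.6 to 174 CPM in sham and 46.2 to 87.6 CPM in TAC, and none passed the edgeR test (8 had an unadjusted p under 0.05). Of 12 mural markers 11 were negative (2 passed), while the summed level was 2275 to 2408 CPM in sham and 2435 to 2600 CPM in TAC. Des, which muscle cells also express, made up 1495 to 1595 CPM of that sum in sham and 1983 to 2005 CPM in TAC. No marker in these 4 lists was at 0 in any library. The 5 tested red blood cell markers overlapped between groups. Of 18 immediate early genes, which respond to handling and stress of cells, 10 fell, from sums of 690 to 1156 CPM to 290 to 304 CPM. The part of these markers in the results below was not tested. In bulk RNA, fewer cells of a type and less RNA per cell cannot be told apart.

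Glycolysis splits glucose into pyruvate in the cytosol. Glucose enters through carriers of the SLC2A family, hexokinase traps it as glucose 6-phosphate, and phosphofructokinase commits it to breakdown. The healthy adult heart burns mainly fatty acids and takes a smaller part of its ATP from glucose and lactate. Glucose 6-phosphate can also be stored as glycogen or enter the pentose phosphate pathway, which yields NADPH and ribose.

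Of the 37 genes, 36 could be tested (Aldoc had at most 2 counts in a library). By edgeR's quasi-likelihood test, with p adjusted over 12499 genes by the Benjamini-Hochberg method and a threshold of 0.05, 5 rose in TAC and 3 fell. Both phosphoglycerate mutases (Pgam1 and Pgam2), the platelet-type phosphofructokinase Pfkp, the lactate and pyruvate carrier Slc16a1 and the glycogen precursor enzyme Ugp2 rose. The bifunctional enzymes Pfkfb1 and Pfkfb3, which set the level of fructose 2,6-bisphosphate, and the phosphorylase kinase subunit Phkg1 fell. The risen genes were 13.9% of those tested, where 2.58% of all genes tested rose, and the fallen genes were 8.33%, where 2.43% of all genes fell. At an unadjusted p under 0.05 there were 12 higher and 4 lower genes, where the shares over all genes were 13.5% and 14%. Phkg1 fell by 54.7% and Pfkfb1 fell by 66.6%, with Pfkfb3 in between, and the 5 higher genes rose by 27.7% to 68.0%.

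**Figure D1:**
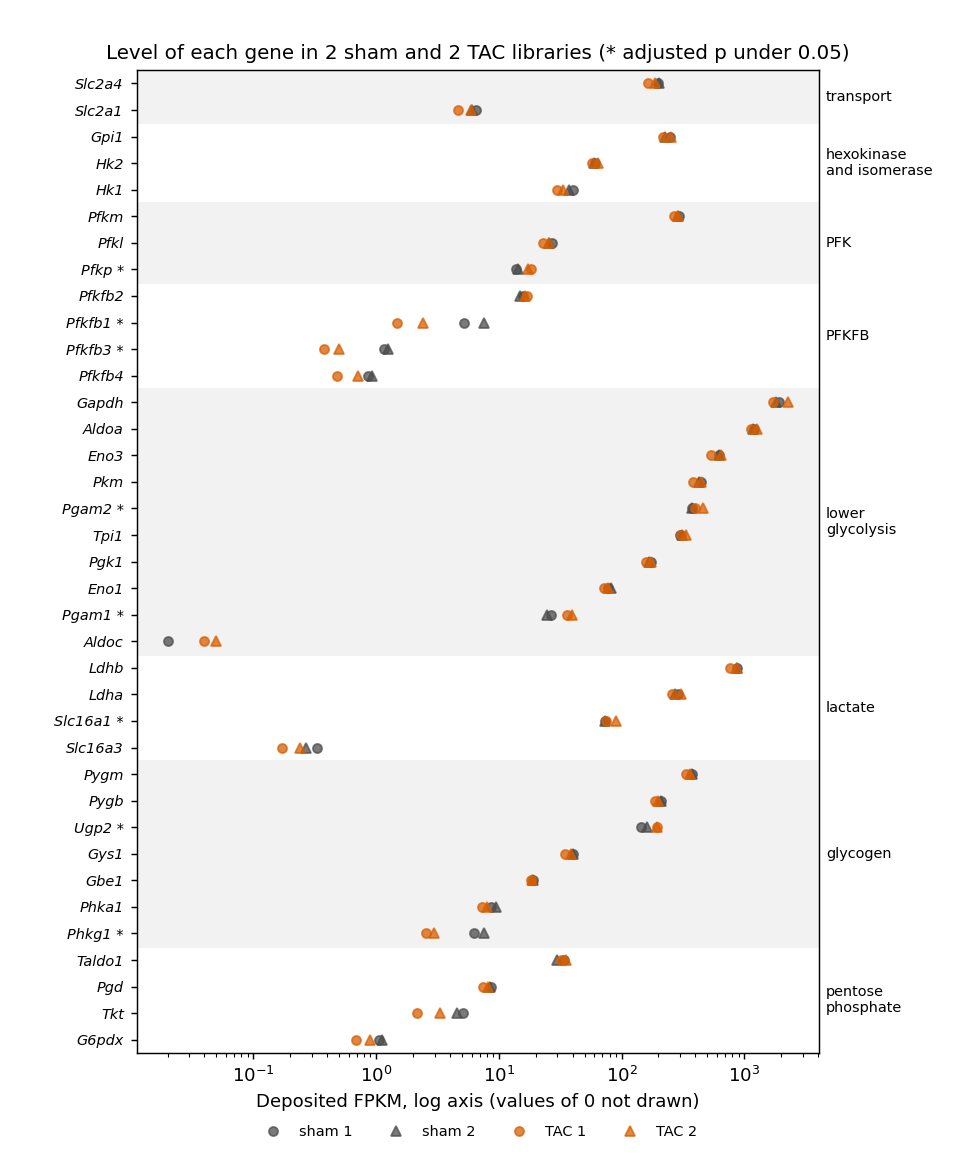
Deposited FPKM (a level per transcript length and library size, log axis) of each gene in 2 sham (grey) and 2 TAC (orange) libraries, ordered by role, with circles for replicate 1 and triangles for replicate 2. Levels ran from 1925 (mean of Gapdh) to 0.0275 (mean of Aldoc), and the points of most genes lay close together.

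The pathway was strongly expressed and uneven in depth. By FPKM, which corrects for length so that genes can be compared, Gapdh (mean over the 4 libraries 1925), Aldoa (1195), Ldhb (848), Eno3 (605), Pkm (425), Pgam2 (404) and Pygm (362) were the highest, and Gapdh ranked at place 25 of all rows. The 10 lower glycolysis genes held 63.7% of the summed FPKM of the 37 genes. Lactate dehydrogenases and carriers followed with 15.0% and glycogen genes with 9.99%. The 4 pentose phosphate genes held 0.566% and the 4 PFKFB genes 0.268%. The genes that fell were among the low ones, with a mean FPKM of 4.83 for Phkg1, 4.17 for Pfkfb1 and 0.828 for Pfkfb3. The median absolute log2 difference was 0.08 between the sham libraries and 0.08 between the TAC libraries, against 0.14 and 0.16 over all genes tested. Between the sham libraries the difference ran mostly one way for these genes. Sham 1 was higher than sham 2 in 4 of 36 genes, against 6112 of 12499 genes tested. The TAC libraries were less one-sided, with TAC 1 higher than TAC 2 in 23 of 36, against 6236 of 12499.

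Direction depended on the scaling for genes with a fold change close to 0. With TMM, 27 of the 36 genes had a positive fold change and their median log2 fold change was 0.11, where the median of all genes tested was −0.01. With total-count scaling, the normalization the study named, 13 of 36 were positive and the median was −0.08, while the median of all genes moved to −0.20. Relative to all genes, the median of the 36 genes was higher by 0.12 under both scalings. A change of scaling moves all genes by nearly the same amount, so this likeness was fixed in advance and is no support. On FPKM with limma the excess was smaller, at 0.04 for log2(FPKM + 1) and 0.10 for log2(FPKM + 0.1), and it was −0.01 for log2(FPKM + 1) with no filter on low values. With TMM both TAC libraries lay above both sham libraries for 22 genes (61.1%, against 29.8% of all genes) and below for 8 (22.2%, against 30.3%). With total counts the same held for 6 and 17 genes, where all genes gave 8.74% above and 47.7% below. The signs given below are those of TMM. All 3 falls and the rise of Pgam1 were called under both scalings, and Pfkp, Pgam2, Slc16a1 and Ugp2 stayed positive under total counts but were not called there.

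**Figure D2:**
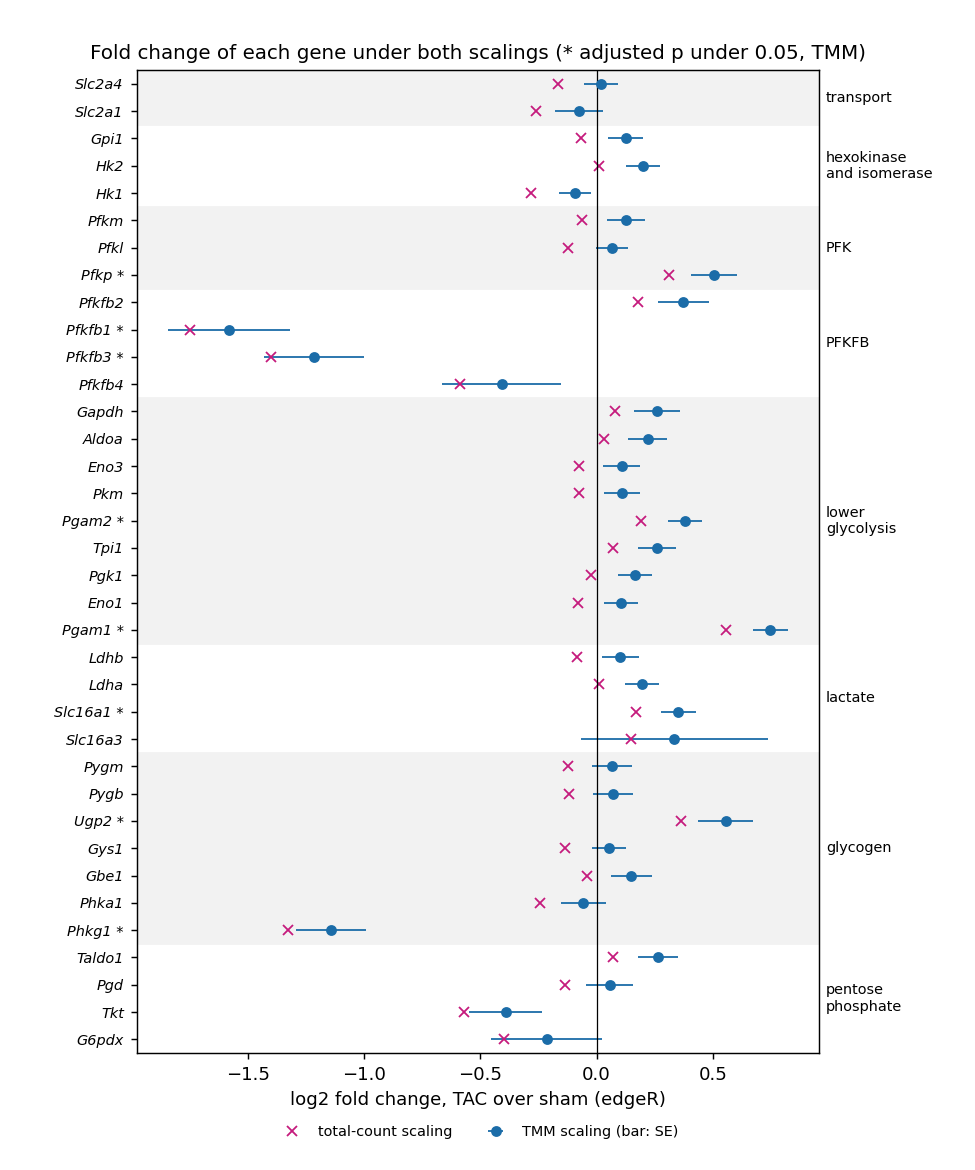
Log2 fold change (TAC over sham, edgeR) of the 36 tested genes with TMM scaling (blue points, bars are the standard error) and with total-count scaling (pink crosses, no bars drawn). Total-count scaling shifted every gene to the left, which put the crosses of 23 genes below 0 against 9 of the blue points.

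The 3 promoter windows are shown because they belong to the phosphoglycerate mutases, an enzyme pair of which both genes rose, and to Phkg1, which fell and each has 1 start in the table. The sequences are RefSeq windows of GRCm38.p6, from 250 bases before to 50 bases after the annotated start. They are written 5′ to 3′ on the strand of the gene. The GENCODE span of Phkg1 (chr5:129863421-129898549, minus strand) has its 5′ end at 129898549. The printed Phkg1 window lies inside that span, so the annotations differ on the start of this gene. Capitals mark ACGTG or GCGTG, the core letters bound by hypoxia-inducible factors, read on both strands.
Pgam1, chr19:41911621-41911920, plus strand: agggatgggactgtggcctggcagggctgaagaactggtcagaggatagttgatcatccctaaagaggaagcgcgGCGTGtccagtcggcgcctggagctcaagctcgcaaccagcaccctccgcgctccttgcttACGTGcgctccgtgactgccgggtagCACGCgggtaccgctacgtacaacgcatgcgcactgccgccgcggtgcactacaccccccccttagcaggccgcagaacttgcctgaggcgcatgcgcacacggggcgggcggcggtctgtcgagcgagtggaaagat
Pgam2, chr11:5803747-5804046, minus strand: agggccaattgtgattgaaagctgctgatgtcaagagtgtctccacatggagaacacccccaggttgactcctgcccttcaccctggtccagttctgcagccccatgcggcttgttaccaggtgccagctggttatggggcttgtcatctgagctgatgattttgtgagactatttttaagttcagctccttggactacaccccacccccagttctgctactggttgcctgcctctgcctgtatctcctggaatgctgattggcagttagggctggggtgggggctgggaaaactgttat
Phkg1, chr5:129879039-129879338, minus strand: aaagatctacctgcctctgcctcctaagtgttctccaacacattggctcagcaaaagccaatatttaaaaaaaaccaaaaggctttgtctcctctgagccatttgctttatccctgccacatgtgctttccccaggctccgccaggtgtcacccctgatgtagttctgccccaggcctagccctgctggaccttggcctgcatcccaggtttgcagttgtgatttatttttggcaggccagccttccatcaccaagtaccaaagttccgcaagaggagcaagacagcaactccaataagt

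The windows differed in composition. The Pgam1 window held 30 CG dinucleotides, 1 match to ACGTG and 2 to GCGTG. The Pgam2 window held 1 CG and the Phkg1 window 2, and neither held a match. The median over all 32851 windows of this length was 7 CG, with a median of 18 over the 55 windows of the 36 genes that matched by symbol. ACGTG was found in 41.8% of those 55 windows and in 19.6% of all windows, and GCGTG in 56.4% and 32.4%. The E-box CACGTG, which contains ACGTG, was found in 9.09% and 7.15%. A MEF2-type motif, CTA and TAG around 4 free bases and the only one searched without a fixed CG, was found in 3.64% and 3.69%. Several genes have more than one start and some windows overlap, and letters alone are not binding sites.

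Glucose carriers showed no called change. Slc2a4 encodes GLUT4, the insulin-responsive carrier of muscle, and stood at 434 and 456 CPM in sham and 450 and 453 CPM in TAC (log2 fold change 0.02 ± 0.07 SE, edgeR adjusted p = 0.885). Its TAC libraries lay between the sham libraries. Slc2a1 encodes GLUT1, the basal carrier that many cell types express, and was at 17.2 and 17.3 CPM in sham and 15.7 and 17.1 CPM in TAC (−0.08 ± 0.10, edgeR adjusted p = 0.673). GLUT4 was also the more abundant per length, at a mean FPKM of 188 against 5.80.

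Among hexokinases, the muscle form Hk2 and the widely expressed form Hk1 lay on opposite sides of 0. Hk2 was at 306 and 319 CPM in sham and 367 and 351 CPM in TAC, 0.20 ± 0.07 higher on the log2 scale, which missed the threshold (edgeR adjusted p = 0.136). Hk1 was at 142 and 139 CPM in sham and 134 and 130 CPM in TAC (−0.09 ± 0.07, edgeR adjusted p = 0.415). The groups did not overlap for either gene. Gpi1, which turns glucose 6-phosphate into fructose 6-phosphate, had a value of 0.13 ± 0.08 (edgeR adjusted p = 0.317).

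Of the 3 phosphofructokinase genes, Pfkp was called. Pfkp (ENSMUSG00000021196, chr13:6579768-6648777 on GRCm38) was at 42.0 and 45.3 CPM in sham and 66.8 and 57.1 CPM in TAC, so that both TAC libraries were higher. The log2 fold change was 0.51 ± 0.10, or 1.42-fold (edgeR adjusted p = 0.0357). It was not called without sham 1 (0.45, edgeR adjusted p = 0.0538) or without TAC 1 (0.39, 0.101). The muscle form Pfkm, the most abundant at a mean FPKM of 285, was at 765 and 797 CPM in sham and 881 and 825 CPM in TAC (0.13 ± 0.08, edgeR adjusted p = 0.338). The liver form Pfkl had 0.07 ± 0.07 (edgeR adjusted p = 0.567).

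The PFKFB family makes and breaks down fructose 2,6-bisphosphate, the main activator of phosphofructokinase. Pfkfb1 (ENSMUSG00000025271, chrX:150588229-150643878), known as the liver and skeletal muscle form, was at 8.34 and 13.03 CPM in sham and 2.94 and 4.21 CPM in TAC. Both TAC libraries were below both sham libraries, although the sham libraries differed between themselves. The log2 fold change was −1.58 ± 0.26, 0.334 of the sham level (edgeR adjusted p = 0.0241). Pfkfb3 (ENSMUSG00000026773, chr2:11471433-11554077), the inducible form, was at 4.49 and 4.97 CPM in sham and 1.90 and 2.17 CPM in TAC. Its log2 fold change was −1.22 ± 0.21, or 0.430 of the sham level (edgeR adjusted p = 0.0273), on 142 and 143 counts in sham and 53 in each TAC library. Without TAC 1 neither fall was called (edgeR adjusted p = 0.0509 for Pfkfb1 and 0.0781 for Pfkfb3), and Pfkfb3 was also not called without sham 2 (0.0537). The log2 values in these fits were −1.34 for Pfkfb1 and −1.12 and −1.14 for Pfkfb3. The endothelial and fibroblast marker sums given above were also lower in both TAC libraries, and their part in the fall of Pfkfb3 was not tested. Pfkfb2, the heart form, moved the other way without passing the test, from 46.9 and 50.5 CPM to 69.4 and 56.6 CPM (0.37 ± 0.11, edgeR adjusted p = 0.0868). Without TAC 2 Pfkfb2 was called (0.52, edgeR adjusted p = 0.0152), and without TAC 1 its value was 0.22 (0.317). Pfkfb4 had −0.41 ± 0.26 (edgeR adjusted p = 0.338).

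**Figure D3:**
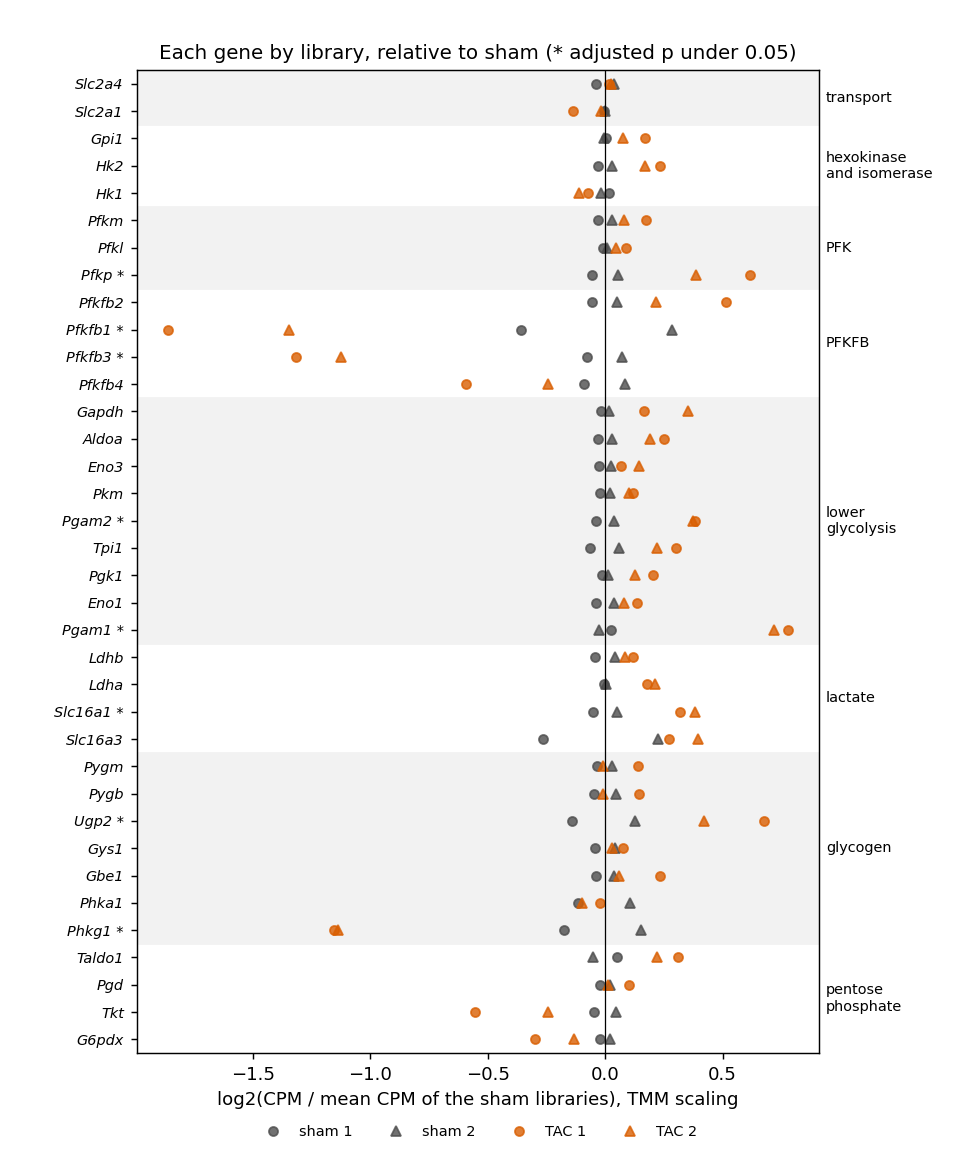
Log2 of the CPM in each library over the mean CPM of the sham libraries for the 36 tested genes, with sham in grey, TAC in orange, circles for replicate 1, triangles for replicate 2 and an asterisk for genes called by edgeR. Pfkfb1, Pfkfb3 and Phkg1 stand apart on the left, and Pgam1 on the right.

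In lower glycolysis all 9 tested genes had a positive fold change with TMM (range 0.11 to 0.75), and for all 9 the TAC libraries lay above the sham libraries, as for 29.8% of all genes. Under total-count scaling this held for 2 of the 9, Pgam1 and Pgam2, while 6 overlapped and Eno1 lay below, where all genes gave 8.74% above and 47.7% below. Under that scaling the fold changes of Eno3, Pkm, Pgk1 and Eno1 turned negative. Pgam1 (ENSMUSG00000011752, chr19:41911923-41918660), the phosphoglycerate mutase of most tissues, had the lowest adjusted p of the 36 genes. It was at 43.4 and 41.8 CPM in sham and 73.1 and 70.1 CPM in TAC, an increase of 0.75 ± 0.08 on the log2 scale or 1.68-fold (edgeR adjusted p = 0.00492). This placed Pgam1 at rank 35 by p among the genes tested, and it was called with each of the 4 libraries left out in turn. On FPKM, limma gave 0.54 for Pgam1, just short of the threshold (adjusted p = 0.0565). Pgam2 (ENSMUSG00000020475, chr11:5801640-5803733), the muscle form, was at 289 and 305 CPM in sham and 387 and 385 CPM in TAC (0.38 ± 0.07, 1.301-fold, edgeR adjusted p = 0.0338). Without sham 1 (edgeR adjusted p = 0.106) or TAC 1 (0.0892) it was not called. With the replicate number as a block it was not called either (0.0629). Pgam2 kept values of 0.34, 0.38 and 0.38 on the log2 scale in these fits, in that order.

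The most abundant enzymes of this stretch did not pass. Gapdh, often taken as a reference gene in RNA and protein assays, was at 2323 and 2374 CPM in sham and 2631 and 2997 CPM in TAC. Its log2 fold change was 0.26 ± 0.10 (edgeR adjusted p = 0.144), and 0.08 with total-count scaling. Aldoa, the muscle aldolase, was at 1611 and 1676 CPM in sham and 1957 and 1876 CPM in TAC (0.22 ± 0.08, edgeR adjusted p = 0.144). Tpi1, which interconverts the triose phosphates, was at 440 and 479 CPM in sham and 566 and 535 CPM in TAC (0.26 ± 0.08, edgeR adjusted p = 0.0969). Pgk1 (0.17), the muscle enolase Eno3 (0.11), the general enolase Eno1 (0.11) and the pyruvate kinase gene Pkm (0.11) had edgeR adjusted p values of 0.189, 0.40, 0.373 and 0.376. The counts do not separate the M1 and M2 forms of Pkm, which arise by splicing.

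For lactate, the carrier was called and the dehydrogenases were not. Slc16a1 (ENSMUSG00000032902, chr3:104638668-104658462) encodes MCT1, which moves lactate and pyruvate across the cell membrane, and was at 293 and 315 CPM in sham and 380 and 397 CPM in TAC. The groups did not overlap, and the log2 fold change was 0.35 ± 0.08 or 1.28-fold (edgeR adjusted p = 0.0467). This call was the weakest of the 8. It was lost without sham 1 (edgeR adjusted p = 0.166), sham 2 (0.0505), TAC 1 (0.0898) or TAC 2 (0.0685), and with the replicate block (0.0783). The fold change of Slc16a1 was 0.30, 0.41, 0.38, 0.32 and 0.35 on the log2 scale in these fits, in the same order. Ldha, the subunit favoured in glycolytic tissue, was at 416 and 418 CPM in sham and 472 and 484 CPM in TAC (0.20 ± 0.07, edgeR adjusted p = 0.136). Ldhb, the heart subunit, was at 995 and 1054 CPM in sham and 1113 and 1087 CPM in TAC (0.10 ± 0.08, edgeR adjusted p = 0.433). Slc16a3, which encodes the lactate exporter MCT4, had only 18 to 23.2 counts per library (0.34 ± 0.40, edgeR adjusted p = 0.621).

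Among the 7 glycogen genes 1 rose and 1 fell. Ugp2 (ENSMUSG00000001891, chr11:21321138-21371201) makes UDP-glucose, the building block of glycogen. It was at 297 and 357 CPM in sham and 523 and 438 CPM in TAC, higher in both TAC libraries (0.56 ± 0.12, 1.47-fold, edgeR adjusted p = 0.0454). Without sham 1 (0.43, edgeR adjusted p = 0.0647) or TAC 1 (0.42, 0.124) the call was lost. Phkg1 (ENSMUSG00000025537, chr5:129863421-129898549), the catalytic subunit of muscle phosphorylase kinase, which activates glycogen phosphorylase, was at 13.7 and 17.1 CPM in sham and 6.92 and 6.99 CPM in TAC. The TAC libraries almost coincided and lay below both sham libraries (−1.14 ± 0.15, 0.452 of the sham level, edgeR adjusted p = 0.0111). The fall of Phkg1 was called without each of the 4 libraries in turn. Its counts were not whole in any library, and the sources used here do not say how the counts were made.

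The other glycogen genes stayed near their sham level with TMM. The muscle phosphorylase Pygm was at 989 and 1034 CPM in sham and 1114 and 1006 CPM in TAC (0.07 ± 0.09), and the brain form Pygb had 0.07 ± 0.09, with edgeR adjusted p values of 0.649 and 0.629. Their TAC libraries overlapped the sham libraries. Glycogen synthase Gys1 had 0.05 ± 0.07, the branching enzyme Gbe1 0.15 ± 0.09 and the regulatory subunit of phosphorylase kinase Phka1 −0.06 ± 0.10, with edgeR adjusted p values of 0.668, 0.307 and 0.733. Under total-count scaling all 5 were negative.

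No pentose phosphate gene was called. Taldo1, the transaldolase of the non-oxidative branch, was at 38.0 and 35.4 CPM in sham and 45.5 and 42.8 CPM in TAC (0.27 ± 0.08, edgeR adjusted p = 0.102). Transketolase Tkt, of the same branch, was at 8.85 and 9.45 CPM in sham and 6.24 and 7.73 CPM in TAC (−0.39 ± 0.16, edgeR adjusted p = 0.163). Both genes separated the groups, in opposite directions. In FPKM the log2 ratio of Tkt was −0.82, and the length implied by its count and FPKM differed by 33.4% between libraries. The NADPH-producing enzymes were low, with G6pdx at 2.12 to 2.64 CPM (−0.21 ± 0.24, edgeR adjusted p = 0.594) and Pgd at 17.6 to 19.1 CPM (0.06 ± 0.10, edgeR adjusted p = 0.744).

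Ratios of related genes within 1 library do not depend on the scaling and were taken from FPKM. Of 11 pairs with a ratio, the TAC libraries lay outside the sham libraries in 8 by FPKM and in 8 by counts, with 7 in common. No share over other gene pairs was computed to set beside this count. The pairs are not independent, because Pfkm and Pfkfb2 each stand in more than 1 pair, and several pairs hold a called gene. With 2 libraries a group an exact permutation test cannot go below p = 0.333, so these values are a description. Hk2 over Hk1 was 1.501 and 1.62 in sham and 1.95 and 1.92 in TAC. Pfkm over Pfkp was 21.2 and 20.3 in sham and 14.7 and 16.8 in TAC. Pgam2 over Pgam1 was 14.1 and 15.4 in sham and 11.2 and 11.6 in TAC. The muscle form thus remained the main one in all 3 pairs, with a larger margin for hexokinase and a smaller one for the other two after TAC. The widest shift was in Pfkfb2 over Pfkfb1, at 2.99 and 1.99 in sham and 11.4 and 6.68 in TAC, and Pfkfb2 over Pfkfb3 went from 13.4 and 11.9 to 44.3 and 32.5. Ldha over Ldhb moved little, from 0.330 and 0.313 to 0.336 and 0.351. Eno3 over Eno1 (7.38 to 8.34) and Pygm over Pygb (1.77 to 1.82) overlapped between groups. The FPKM ratio of Slc16a1 over Slc16a3 was higher in TAC, but the count ratio overlapped, and the implied length of Slc16a3 differed by 123% between libraries. Slc2a4 over Slc2a1 overlapped by FPKM (30.4 and 33.1 in sham, 35.6 and 31.5 in TAC), while by counts the TAC ratios lay above the sham ratios (25.2 and 26.4 in sham, 28.6 and 26.5 in TAC).

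**Figure D4:**
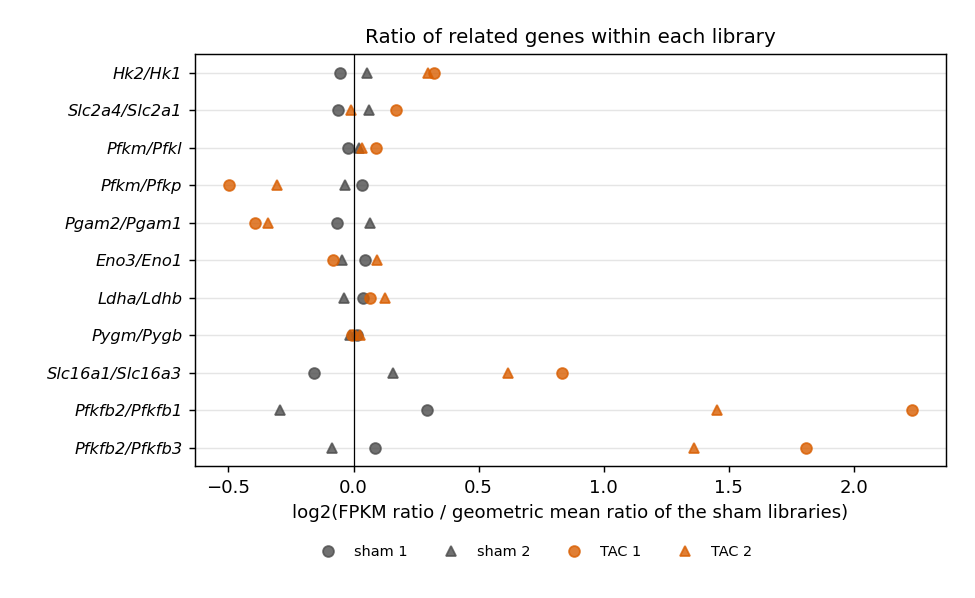
Log2 of the FPKM ratio of 2 related genes in each library over the geometric mean of the sham ratios, for 11 pairs, with sham in grey, TAC in orange, circles for replicate 1 and triangles for replicate 2. The TAC points of the Pfkfb2 pairs lie farthest to the right, and those of Pfkm over Pfkp and Pgam2 over Pgam1 lie to the left of the sham points.

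Other genes of the same pathways were examined from a separate list of 91 genes, of which 82 could be tested. Of these, 2 rose and 4 fell, 2.44% and 4.88% of those tested, where 2.58% of all genes rose and 2.43% fell. The risen share was thus near that of all genes. Gyg, glycogenin, the protein primer of glycogen, was at 116 and 122 CPM in sham and 153 and 158 CPM in TAC (0.38 ± 0.07, edgeR adjusted p = 0.0310). It was called in 7 of 15 alternative settings. Those without the call included total counts (edgeR adjusted p = 0.367) and the fits without sham 1 or without TAC 1.

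Of the genes that fell, 3 are described here. Pdp1, the phosphatase that activates pyruvate dehydrogenase, was at 40.0 and 43.0 CPM in sham and 27.7 and 28.9 CPM in TAC (−0.55 ± 0.09, edgeR adjusted p = 0.0200). It was called without each library in turn. Prps2, which makes phosphoribosyl pyrophosphate from ribose 5-phosphate, had −0.72 ± 0.12 (edgeR adjusted p = 0.0260; 0.0694 without TAC 1). Tbc1d4, a regulator of GLUT4 traffic, had −0.41 ± 0.08 (edgeR adjusted p = 0.0371). It was not called without sham 2 (0.0925), TAC 1 (0.0680) or TAC 2 (0.0572), or with the replicate block (0.0509). By branch, for 5 of the branches, the counts called were 1 of 23 tested glycogen genes, 1 of 7 pentose phosphate genes, 0 of 7 hexosamine and polyol genes (edgeR; 3 at an unadjusted p under 0.05, all higher), 1 of 13 genes of pyruvate entry and 1 of 17 regulators.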

How the data were processed

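RNA was extracted with TRIzol from cardiomyocytes and sequenced by a provider for the authors. The authors deposited 1 file per library, with an expected count per gene, which need not be whole, and its FPKM. The submitters' processing notes name Bowtie2 2.2.8, StringTie 1.3.1 and mm10, with no role for each. The sources used here do not state strand use or the length and total behind FPKM. The study scaled by total counts. Counts were not whole in all 4 libraries for Gapdh, Pfkp, Pfkfb2, Gys1 and Phkg1, in 2 for Eno1 and in 1 for Slc16a3.

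Counts were rounded and analysed in R 4.3.3 with edgeR 4.0.16 (filterByExpr, TMM, glmQLFit, glmQLFTest, TAC against sham, no block). Adjustment was over 12499 genes, and the standard error was the size of the log2 fold change over the square root of F. DESeq2 1.42.0 and limma 3.58.1, on log2(FPKM + 1) or log2(FPKM + 0.1), served as alternatives. The edgeR step was tested on simulated counts. Libraries of a group differed beyond sampling noise (chi-square per degree of freedom 8.08 for sham and 26.7 for TAC).

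Groups came from the titles. The genes, lists and tests were chosen with earlier results of these data known. Every gene was described by its role. Values in every library were given for called genes and for genes without overlap at an unadjusted p under 0.05, and for some other genes chosen after their values were seen. Of the separate list, called genes were named and the rest counted, except that some items are not reported here. Coordinates of genes are from GENCODE M21 (GRCm38, the assembly of mm10) by Ensembl ID.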

Additional observations from a re-analysis of the deposited data

How the results depend on the processing

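The count of risen genes depended on scaling and on single libraries, and that of fallen genes less so. Risen genes numbered 5 with TMM, DESeq2 or DESeq2 size factors, 1 with total counts, 2 with totals without the 13 mitochondrial genes, and 0 with limma on log2(FPKM + 1), log2(FPKM + 0.1) or unfiltered FPKM, where limma gave 8 of the genes an unadjusted p under 0.05 in each fit. Over all genes, the number called higher moved too, from 322 with TMM to 105 with total counts, 188 with totals without mitochondrial genes and 69 with limma on log2(FPKM + 1). Leaving out 1 library gave 1 to 5 risen and 1 to 3 fallen genes, where the lowest of both came without TAC 1, and 1 risen gene also without sham 1. Fallen genes numbered 3 in the count-based fits with all libraries and with limma on log2(FPKM + 1), 2 on log2(FPKM + 0.1), and 0 with unfiltered FPKM, where limma called 0 genes in all (2552 at an unadjusted p under 0.05). In a fit with 1 library in an arm, that library is assumed to vary like the others.

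The median log2 fold change was 0.11, with −0.0761 for total counts, 0.0101 for totals without mitochondrial genes, and −0.09 for limma in each of its 3 forms (−0.0881, −0.0884 and −0.0858). Without 1 library it ranged from 0.08 (0.0783, without TAC 1) to 0.14 (without sham 2 or TAC 2).

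In the separate list 2 genes rose and 4 fell. Risen genes were 1 with total counts, totals without mitochondrial genes or filtered limma, 0 with unfiltered limma, 5 with DESeq2, 6 with no low-count filter and 7 at an adjusted p under 0.1. Fallen genes were 2 with filtered limma, 0 with unfiltered limma, 8 with no low-count filter and 7 at an adjusted p under 0.1. Leaving out 1 library gave 2 to 4 risen and 2 to 6 fallen genes.

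Over all genes, 626 were called, with 1676 under no low-count filter, 925 by DESeq2, 301 without TAC 1 and 1336 without TAC 2. The replicate block gave 3 risen and 3 fallen genes. The labels give the groups the same replicate numbers but no shared origin. The methods speak of pairs of sham and TAC mice without saying what a pair shared or which libraries form it. The deviations of sham 1 and TAC 1 had a correlation of −0.24 across genes. A crossed replicate block, added after seeing the data, gave 7 risen and 3 fallen genes, and 9 and 10 in the separate list, with 968 risen and 1163 fallen over all genes. Isozyme pairs without overlap numbered 8 by FPKM and by counts, and 9 to 10 without 1 library, where the count cannot fall because fewer values have to be separated. The cause of the other changes was not tested.

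Depth limits Slc16a3, Aldoc, Pfkfb3, Pfkfb4 and G6pdx, with under 150 counts in each library.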

Other observations

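Some genes of the separate list came near the threshold without passing it. They were chosen after their values were seen. Tigar, a fructose bisphosphatase that lowers fructose 2,6-bisphosphate, was at 46.8 and 53.2 CPM in sham and 73.5 and 61.9 CPM in TAC (log2 fold change 0.44 ± 0.11 SE, edgeR adjusted p = 0.0614). Akr1b3, the aldose reductase of the polyol branch, was at 154 and 155 CPM in sham and 187 and 191 CPM in TAC (0.30 ± 0.07, edgeR adjusted p = 0.0532). Pdk4, the kinase that turns off pyruvate dehydrogenase, was at 366 and 377 CPM in sham and 452 and 629 CPM in TAC (0.54 ± 0.14, edgeR adjusted p = 0.0703), so that the TAC libraries differed from each other more than the lower one differed from sham. Ppp1r3c, which targets a phosphatase to glycogen, was at 101 and 88.2 CPM in sham and 167 and 114 CPM in TAC (0.57 ± 0.16, edgeR adjusted p = 0.0840). Pdhb, a subunit of pyruvate dehydrogenase, was at 449 and 455 CPM in sham and 558 and 519 CPM in TAC (0.25 ± 0.08, edgeR adjusted p = 0.0935). Lower genes also came near. Mef2c, a muscle transcription factor, had −0.35 ± 0.09 (edgeR adjusted p = 0.0686), the monocarboxylate carrier Slc16a7 −0.71 ± 0.20 (0.0854) and the phosphorylase kinase subunit Phka2 −0.41 ± 0.13 (0.0997). At an adjusted p under 0.1 the list held 7 higher and 7 lower of 82 genes, where all genes held 878 and 939 of 12499.

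Txnip and Arrdc4, arrestin-type genes known to respond to glucose, did not pass the test. Txnip was at 424 and 617 CPM in sham and 391 and 498 CPM in TAC (−0.23 ± 0.18, edgeR adjusted p = 0.441), a wider gap between the sham libraries than between the group means. Arrdc4 was at 6.92 and 4.93 CPM in sham and 2.15 and 4.70 CPM in TAC (−0.80 ± 0.35, edgeR adjusted p = 0.187).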
